A study of Mus musculus with 6 samples.

Results

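The Myc family comprises Myc, Mycn and Mycl, the genes of the basic helix-loop-helix leucine zipper factors MYC, MYCN and MYCL. Its accessible chromatin was followed by ATAC-seq, which marks open DNA with the Tn5 transposase, as mouse embryonic stem cells left the ground state. An interval of a deposited peak list was counted for the family when, of all protein-coding gene ends in RefSeq (mm10), the one nearest to its midpoint was an end of Myc, Mycn or Mycl and lay within 100 kb. This rule took 114 of 258093 intervals over the 3 lists, 48 of 91228 in 2iL, 38 of 88810 at 48 h and 28 of 78055 at 96 h. Merging intervals that overlapped by at least 1 bp gave 54 family regions, 23 at Myc, 22 at Mycn and 9 at Mycl, of 131410 regions in all.

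The cells were of the E14 line, derived from mouse blastocysts, grown on gelatin in serum-free N2B27 medium. The 2iL group kept CHIR99021, which inhibits GSK3, PD0325901, which inhibits MEK, and the cytokine LIF, and the 48 h and 96 h groups were harvested 48 h and 96 h after all 3 had been taken away. Each group had 2 samples, A and B, of 100000 live cells each, and nothing in the labels says whether A and B were separate cultures. The authors deposited 1 list per group for both samples together, so no value has a replicate spread and no difference between groups could be tested.

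MYC proteins pair with MAX and bind the E-box CACGTG, and they are known for raising ribosome production, nucleotide synthesis and cell-cycle entry. In mouse embryonic stem cells Myc is a known target of LIF and STAT3, GSK3 marks the MYC protein for degradation, and MYC and MYCN can largely stand in for each other. MYCN is the member best known from the epiblast and the neural tube, and MYCL is a weaker transforming factor that is also known from reprogramming to pluripotency.

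The RefSeq (GRCm38.p6) promoters of Mycn and Mycl, 250 bases before to 50 bases after the start, are shown because an accessible region overlaps each of them in every list. Mycn lies on the minus strand, with the printed stretch at chr12:12941787-12942086, and Mycl lies on the plus strand, at chr4:122995681-122995980. The promoter of the long non-coding RNA Gm35208, on the plus strand at chr12:12987131-12987430, is shown because the accessible region over it was absent from the 96 h list. Capitals mark matches to the searched motifs.
Mycn promoter: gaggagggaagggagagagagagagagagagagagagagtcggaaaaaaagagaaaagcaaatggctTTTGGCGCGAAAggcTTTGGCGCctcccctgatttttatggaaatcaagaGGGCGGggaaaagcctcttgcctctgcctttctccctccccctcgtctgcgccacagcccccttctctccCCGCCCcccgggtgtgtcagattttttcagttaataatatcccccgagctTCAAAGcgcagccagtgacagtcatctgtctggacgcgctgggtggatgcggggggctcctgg
Mycl promoter: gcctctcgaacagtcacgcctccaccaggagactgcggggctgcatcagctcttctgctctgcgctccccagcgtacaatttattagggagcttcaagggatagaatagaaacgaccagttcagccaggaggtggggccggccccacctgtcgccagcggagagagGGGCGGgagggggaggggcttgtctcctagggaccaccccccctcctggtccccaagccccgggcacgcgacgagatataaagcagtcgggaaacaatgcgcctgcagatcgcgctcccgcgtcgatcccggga
Gm35208 promoter: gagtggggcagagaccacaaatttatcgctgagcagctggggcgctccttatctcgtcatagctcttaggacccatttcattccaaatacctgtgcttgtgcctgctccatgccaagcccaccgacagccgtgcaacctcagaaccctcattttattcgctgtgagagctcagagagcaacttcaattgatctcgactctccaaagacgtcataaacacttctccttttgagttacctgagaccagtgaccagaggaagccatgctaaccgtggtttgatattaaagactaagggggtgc

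The Mycn promoter held 3 E2F matches, TTTGGCGC at position -183, GCGCGAAA at -179 and TTTGGCGC at -168, with the first 2 overlapping. Positions count from the RefSeq start and give the first base of the match on the gene's own strand. E2F factors drive entry into S phase. A match to TTTGGCGC or TTTCGCGC on either strand was found in 0.813% of 32851 mouse promoters, and at least 3 matches in 2 of them (0.00609%). The Mycn promoter also held the GC box GGGCGG at -133 and, on the other strand, CCGCCC at -63, and 19.5% of promoters held at least 2 such boxes. A match to the TCF/LEF letters CTTTGA, read as TCAAAG, began at -13, and 16.0% of promoters held one. The Mycl promoter held 1 GC box, at -84, as 35.7% of promoters held at least 1. No match to CACGTG (E-box, 7.15% of promoters), TTCNNNGAA (STAT, 8.30%), TCAAGGTCA (ESRRB, 0.423%), ATGCAAAT (octamer, 1.74%) or CCGGAAG (ETS, 8.86%) was present in these 3 stretches, and none of the searched motifs was present in that of Gm35208. A match is a stretch of letters and not a measured binding site.

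Accessibility is given below as the highest pileup of an interval in tags, the number of sequenced tags stacked at its summit. Tags were recovered from the fold enrichment and the -log10 p that the authors gave each summit, and 100% of summits gave a whole number within 0.02. A scaled pileup is the number of tags divided by the genome-wide background of its list, 14.2 tags in 2iL, 15.18 at 48 h and 13.99 at 96 h. The median interval had 212, 228 and 217 tags in the 3 lists, in that order of time. Exact Poisson intervals (95%) accompany the main pileups and cover counting error only, since tags copied by PCR are not independent molecules. Fold enrichment is the authors' value relative to local background and is used only within its own list.

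The labelled cell type was checked at its defining genes: 7 of 8 embryonic stem cell markers in 2iL, 8 of 8 at 48 h and 8 of 8 at 96 h had an interval within 1 kb of a gene end. The marker without one in 2iL was Esrrb, which nevertheless had 28 regions in 2iL, 28 at 48 h and 16 at 96 h within 100 kb of its ends. Over all 21887 protein-coding genes the shares with such an interval were 59%, 61.5% and 59.7% in the 3 lists. Markers of other cell types had such intervals as well. They were found at 3, 3 and 4 of 6 fibroblast genes, at 3, 4 and 5 of 6 extraembryonic endoderm genes and at 3, 4 and 3 of 5 trophoblast genes of the 2iL, 48 h and 96 h lists. Whether cells of these types were present was not tested, and an open gene end does not show that a gene is expressed.

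The family's listed regions became fewer at each time, and the fall was carried by Myc and Mycn. Myc had 22 intervals in 2iL, 16 at 48 h and 10 at 96 h. Mycn had 18, 14 and 11, and Mycl had 8, 8 and 7 in the same order. The covered length of the family was 34.7 kb, 29.9 kb and 21.9 kb. Within 20 kb of a gene end the family had 21, 23 and 17 intervals, so that no fall at 48 h was seen at that distance. The lists as wholes shortened too. A net fall between 96 h and 2iL as large as the 12 intervals at Myc was seen at 101 of 21887 protein-coding genes (0.461%, Myc included), and one as large as the 7 at Mycn was seen at 562 (2.57%). A fall of at least 1 interval, as at Mycl, was seen at 37.9% of genes. These shares count all genes, also those with too few intervals in 2iL to fall so far. The rarity at Myc and Mycn therefore cannot be told apart from their large starting numbers.

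Both Myc and Mycn sit in long stretches without other protein-coding genes, which leaves the rule more room there. The next protein-coding genes were A1bg, 1060 kb below Myc, and Gsdmc, 1790 kb above it, and Cyria and Ddx1, 555 kb and 277 kb from Mycn. Mycl was flanked by Mfsd2a at 34.4 kb and Trit1 at 14.1 kb. In 2iL, 99% of genes had fewer intervals than Myc, 98% had fewer than Mycn and 86% had fewer than Mycl. At 96 h these shares were 93.6%, 95.1% and 86.5%.

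**Figure D1:**
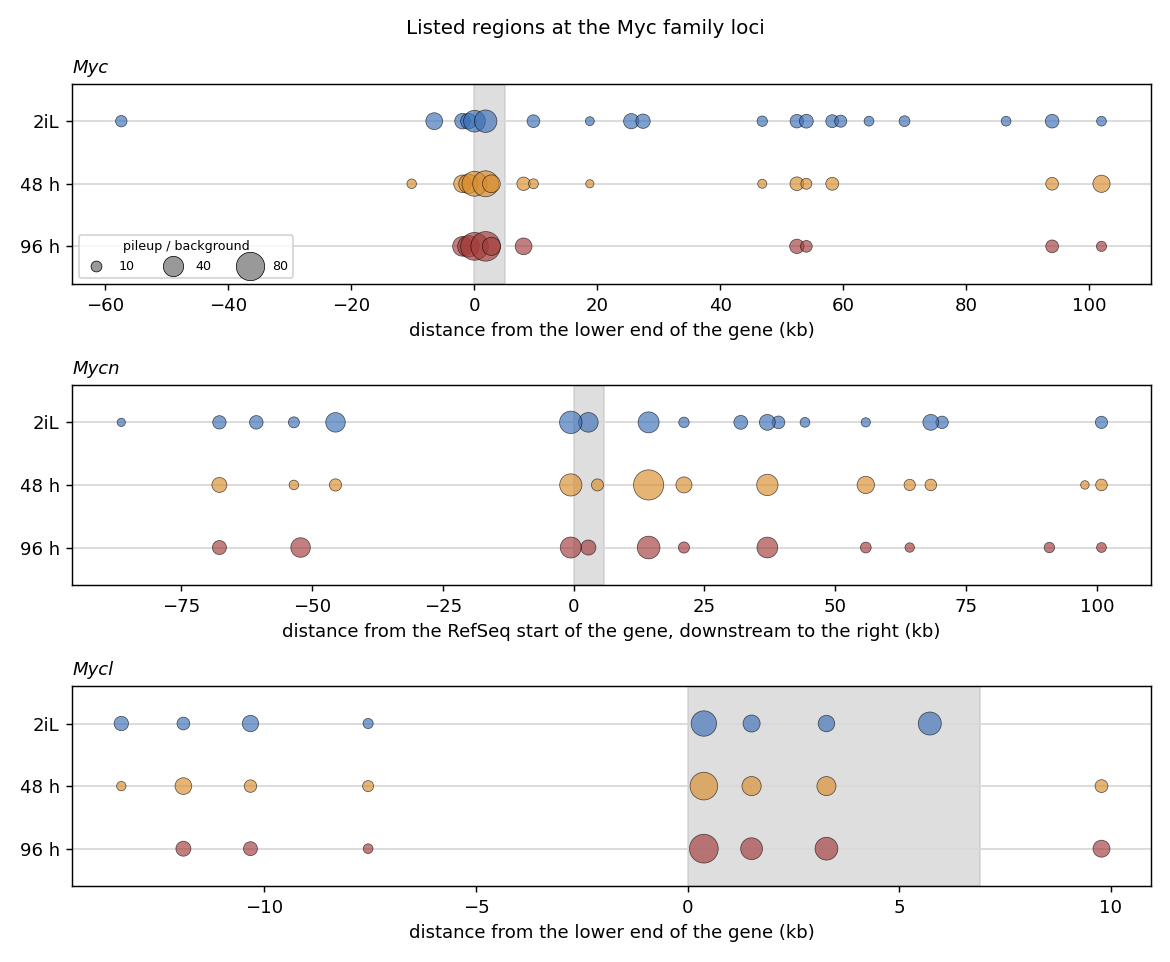
Listed regions along the 3 loci. The x axis gives the distance of a region's midpoint from the gene in kb, with the gene as a grey band, each row is a list, and the area of a point follows the scaled pileup. At Myc the Pvt1 regions within 100 kb, at the right, number 9, 5 and 4 over time, and the 2 strong regions at the gene are in every list.

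At Myc, 2 strong regions at the gene were present in every list and had more tags at each later time. The gene occupies chr15:61985341-61990361. The region over its lower end, chr15:61984893-61985933, had 656 tags in 2iL (interval 607 to 708), 932 at 48 h (873 to 994) and 1077 at 96 h (1014 to 1143), or 46.2, 61.4 and 77.0 times the background. The region inside the gene, chr15:61986642-61987815, had 705, 1014 and 1222 tags, or 49.7, 66.8 and 87.4 times the background. In raw tags, neither region's counting intervals overlapped between any 2 lists. How often this holds over all regions was not computed. At 96 h the scaled pileups were 1.67 and 1.76 times those in 2iL. Gene-end regions in general moved the same way: the lower-end region's ratio lay at the 76.0th percentile of 13330 regions within 1 kb of a gene end, whose median ratio was 1.34. The weaker regions 0.906 kb and 1.88 kb below the gene had 331, 551 and 638 tags and 321, 447 and 525 tags in the 3 lists.

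Local background around Myc was high and also moved. At the region over the lower end it was 111 tags in 2iL, 175 at 48 h and 199 at 96 h, where the median interval had 23.3, 24.8 and 21.0. The authors' fold enrichment there was 5.84, 5.31 and 5.40, which placed it at the 23.6th, 21.3rd and 19.5th percentile of its lists, although its tags stood at the 89.2nd, 92.3rd and 92.1st. A peak at the gene could therefore rank low by fold and high by tags in the same list. What raised the local background was not tested.

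**Figure D2:**
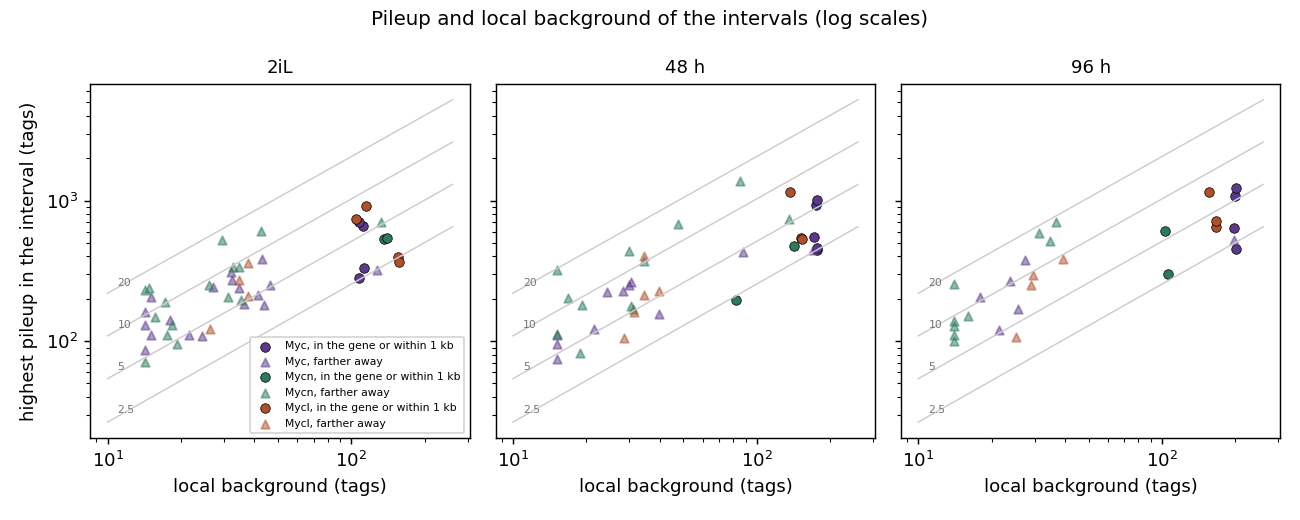
Highest pileup against local background, both in tags on log axes, for each family interval in 2iL, at 48 h and at 96 h. Grey lines join points of equal fold enrichment, and most intervals in a gene or within 1 kb of it lie at the upper right. An exception is the 48 h interval inside Mycn with 196 tags over a local background of 82.1.

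Above Myc, that is at higher coordinates, several regions present in 2iL were absent from the later lists, and others appeared. The 2iL region with the highest fold enrichment at Myc (12.9), 4.64 kb above the gene at chr15:61994570-61995428, had 207 tags in 2iL and 122 at 48 h and was absent at 96 h. A region 3.03 kb above the gene, chr15:61993147-61993642, was absent in 2iL, had 250 tags at 48 h and 375 at 96 h, and had the highest fold enrichment at Myc in the 96 h list (13.2). The other 2iL regions leading by fold enrichment lay 57.3 kb below the gene (161 tags, fold enrichment 10.7) and 20.5 kb above it (311 tags, 9.40), and both were listed in 2iL only. The same held for regions 6.47 kb below the gene (385 tags) and 22.5 kb above it (272 tags). Regions 13.8 kb and 41.8 kb above the gene had 87 and 130 tags in 2iL and 74 and 96 at 48 h, and were absent at 96 h.

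Pvt1, a long non-coding RNA gene known for its place beside Myc and for shared amplification with it in tumours, begins 47.6 kb above Myc, and 9 of the 23 Myc regions overlapped it. All 9 were listed in 2iL, 5 at 48 h and 4 at 96 h. The 100 kb limit cuts through Pvt1: over the whole gene 20, 20 and 10 regions were listed, with no fall at 48 h. The region at its lower end, chr15:62037001-62038641, stayed within counting error, with 239 in 2iL, 262 at 48 h and 267 at 96 h. The region 89.0 kb above Myc was similarly steady at 243, 222 and 207 tags. These 2 were among the 3 Myc regions with the highest fold enrichment at 48 h (8.32 and 8.84) and at 96 h (10.9 and 10.95). The region 97.0 kb above Myc had 109 tags in 2iL (interval 89.5 to 132), 430 at 48 h (390 to 473) and 120 at 96 h (99.5 to 144), so that it was high at 48 h alone. Its 48 h ratio to 2iL, 3.69, lay at the 99.1st percentile of regions in both lists, and its local background was 87.9 tags at 48 h, against 24.5 in 2iL. The 4 Pvt1 regions listed in 2iL only had between 110 and 185 tags.

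At Mycn the merged region at the start was in every list. Downstream of the gene, 4 regions had a scaled pileup at least 1.5 times higher at 48 h than in 2iL, and 2 strong regions upstream were each missing from at least 1 list. The gene occupies chr12:12936093-12941836. The start region, chr12:12941004-12943767, had 703 tags in 2iL (interval 652 to 757), 735 at 48 h (683 to 790) and 604 at 96 h (557 to 654), or 49.5, 48.4 and 43.2 times the background. These pileups were not all over the start itself. In 2iL and at 48 h the region held 2 intervals. The one over the start had 545 tags in 2iL and 474 at 48 h, and the higher values belong to a second one, 1.11 and 1.22 kb from the start. At 96 h a single interval spanned both places. The merged region's 96 h ratio to 2iL of 0.872 lay at the 9.63rd percentile of regions within 1 kb of a gene end, where the median ratio was 1.34. The printed promoter was covered by listed intervals over 248 of its 300 bases in 2iL, 300 at 48 h and 300 at 96 h.

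A set of regions downstream of Mycn had its highest pileup at 48 h. The strongest, 8.58 kb downstream at chr12:12926915-12928112, had 611 tags in 2iL (interval 564 to 661), 1383 at 48 h (1311 to 1458) and 709 at 96 h (658 to 763), or 43.0, 91.1 and 50.7 times the background. Its pileup was at the 87.8th, 97.2nd and 85.0th percentile of the 3 lists. The region 15.3 kb downstream had 130, 369 and 150 tags, and the region 50.1 kb downstream had 96, 437 and 139. Both of these were high at 48 h alone. Their 48 h ratios to 2iL, 2.65 and 4.26, lay at the 97.0th and 99.5th percentile of 60329 regions in both lists. The region 31.3 kb downstream, chr12:12904172-12905467, had 338 tags in 2iL, 676 at 48 h and 589 at 96 h. Its scaled pileup at 96 h was 0.945 times that at 48 h. Local background also moved at the strongest region, with 42.6 tags in 2iL, 85.2 at 48 h and 36.8 at 96 h. Its part in these values was not tested.

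Except for the farthest, the other regions downstream of Mycn were each absent from the 2iL, 48 h or 96 h list. The region 62.5 kb downstream had 337 tags in 2iL and 179 at 48 h and was absent at 96 h. The region 26.2 kb downstream, which overlaps the gene Gm40271, was listed in 2iL only, with 251 tags. Regions 33.4, 38.5 and 64.7 kb downstream were also listed in 2iL only, with 206, 110 and 197 tags. One 58.5 kb downstream was absent in 2iL and had 168 tags at 48 h and 100 at 96 h, one 92.0 kb downstream was listed at 48 h only (82 tags), and one 85.2 kb downstream at 96 h only (128 tags). The farthest, 95.1 kb downstream, was in every list with 189, 180 and 110 tags. Inside the gene, a region 2.81 kb from the nearer end had 530 tags in 2iL, was absent at 48 h and had 298 at 96 h, and another was listed at 48 h only, with 196 tags.

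Upstream of Mycn, the 2iL list and the 96 h list held different regions at opposite ends of Gm35208, a long non-coding RNA gene. The region over its start, chr12:12986628-12988074, lay 45.5 kb upstream of Mycn and had 526 tags in 2iL (interval 482 to 573) and 202 at 48 h (175 to 232). It had the highest fold enrichment of the family in 2iL (17.2) and was absent at 96 h. Listed intervals covered all 300 bases of the printed Gm35208 promoter in 2iL and at 48 h and 0 of them at 96 h. A region at the other end of Gm35208, chr12:12993446-12994608, was listed at 96 h only, with 519 tags (interval 475 to 566) and fold enrichment 14.6. The neighbouring region 53.5 kb upstream had 148 tags in 2iL and 112 at 48 h and was absent at 96 h. Farther out, the region 60.7 kb upstream was listed in 2iL only (238 tags, fold enrichment 15.2), and so was one 86.5 kb upstream (71 tags). The region 67.7 kb upstream was in every list with 231, 318 and 255 tags, and with fold enrichment 15.3, 19.7 and 17.1 it was among the leading 3 of Mycn each time.

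**Figure D3:**
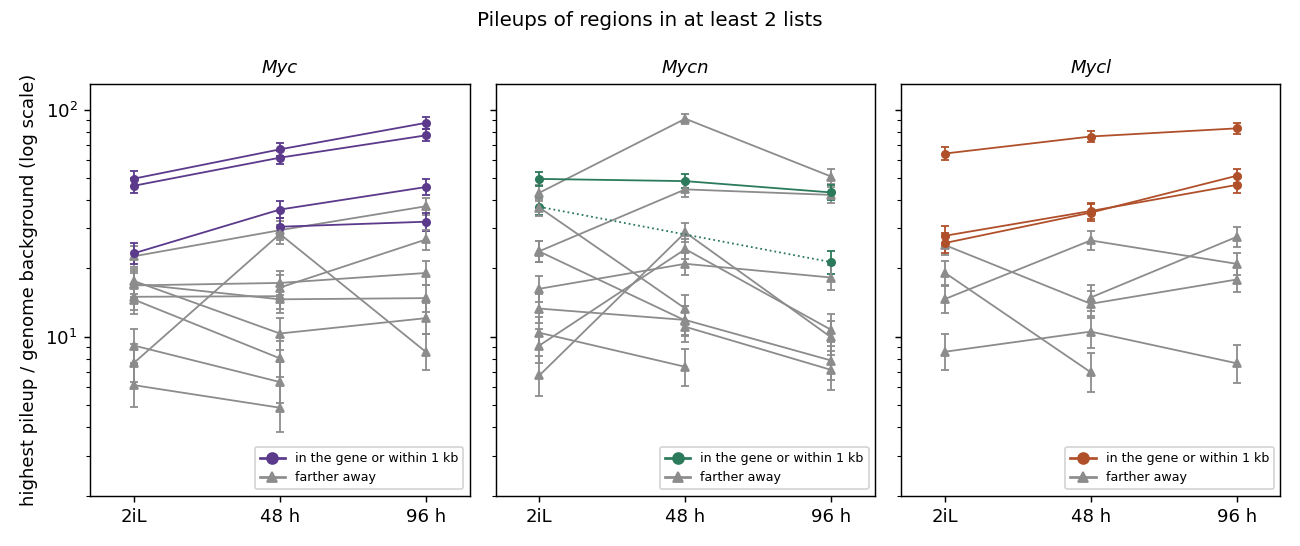
Scaled pileup, on a log axis, of each family region present in at least 2 lists, with exact Poisson 95% intervals. Coloured points lie in the gene or within 1 kb of it, grey triangles lie farther away, and the dotted line passes over a list without the region. At Myc and Mycl the regions at the gene are higher at 96 h than in 2iL, while at Mycn the region 8.58 kb downstream reaches 91.1 at 48 h.

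Of the 9 Mycl regions, 6 were in every list (66.7%, 29.9 to 92.5%), against 35.9% of all regions, a share that the interval includes. The region over its start, chr4:122995339-122996603, was the strongest of the family in 2iL, with 909 tags (interval 851 to 970), and had 1155 at 48 h (1089 to 1224) and 1156 at 96 h (1090 to 1225), or 64.0, 76.1 and 82.6 times the background. In raw tags, the 48 h and 96 h counts did not differ beyond counting error, and both lay above 2iL. The rise was not particular to this region: its 96 h ratio to 2iL, 1.29, lay at the 44.8th percentile of regions near a gene end. Their median ratio was 1.34. The regions inside the gene 1.51 kb and 3.28 kb from its start had 395, 543 and 652 tags and 367, 534 and 715 tags.

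The strongest family region missing from a later list also lay in Mycl. The region chr4:123000722-123001899, inside the gene and 1.18 kb from its upper end, had 742 tags in 2iL (interval 690 to 797), at the 91.4th percentile of that list, and was absent at 48 h and at 96 h. A region 2.88 kb above the gene took the reverse course, absent in 2iL with 226 tags at 48 h and 385 at 96 h. Upstream, 4 regions between 7.55 and 13.4 kb from the start were smaller. The one at 13.4 kb had 272 tags in 2iL and 106 at 48 h and was absent at 96 h. The one at 11.9 kb was highest at 48 h (208, 403 and 293 tags) and led the gene by fold enrichment at 48 h (11.3) and 96 h (9.64). The one at 10.3 kb was highest in 2iL (360, 212 and 250 tags), and the one at 7.55 kb had 122, 160 and 107 tags.

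After 48 h without 2iL, the family had 36 listed regions, against 45 in 2iL. Of the 45, 16 were absent at 48 h (35.6%, exact Clopper-Pearson interval 21.9 to 51.2%), against 33.2% of all regions in 2iL. Of the 36, 7 were gained (19.4%, 8.19 to 36.0%), against 31.2% of all regions at 48 h. With lists of equal length the gained share was 31.2%, against 30.8% of all regions, and in the upper 50% of each list it was 44.4%, against 28.9%, with 54.5% lost, against 30.9%. In the full lists, the lost share was near that of the genome, and the interval of the gained share includes the genome's. In the upper 50% both shares were above the genome's, with 12 of 22 lost and 8 of 18 gained, and no interval is given there. By gene, 8 of 20 regions were lost at Myc, 7 of 17 at Mycn and 1 of 8 at Mycl, and 3 of 15, 3 of 13 and 1 of 8 were gained. Of 29 regions in both lists, 7 had a scaled pileup at least 1.5 times higher at 48 h, against 19.1% of all such regions, and 6 at least 1.5 times lower, against 15.3%. Of the 7 higher ones, 4 were at Mycn, all downstream of the gene.

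Between 48 h and 96 h the family went on losing regions, at a share near that of all regions. Of the 36 regions at 48 h, 11 were absent at 96 h (30.6%, 16.3 to 48.1%), against 30.7% of all regions. Of the 28 at 96 h, 3 were gained (10.7%, 2.27 to 28.2%), against 21.2% of all. All 3 were at Mycn, and Myc gained 0 of 10. Of 25 regions in both lists, 2 had a scaled pileup at least 1.5 times higher at 96 h, against 12.9% of all such regions, and 6 at least 1.5 times lower, against 16.4%. At Mycn 5 of 8 were lower and the median ratio was 0.654, where the median of all regions was 1.08.

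Over the whole course, 23 of the 45 regions of 2iL were absent at 96 h (51.1%, 35.8 to 66.3%), against 44.9% of all regions, and 6 of the 28 regions at 96 h were gained (21.4%, 8.30 to 41.0%), against 35.5% of all. Both intervals include the share of all regions. The gained share depended on the length of the lists: with lists of equal length it was 39.3%, against 39.8% of all regions, and in the upper 50% of each list it was 41.2%, against 31.6%. Myc lost 12 of 20, Mycn 9 of 17 and Mycl 2 of 8. Of 22 regions in both lists, 7 had a scaled pileup at least 1.5 times higher at 96 h, against 28.6% of all such regions, and 2 at least 1.5 times lower, against 17.2%. The median ratio was 1.40 at Myc, 1.15 at Mycn and 1.36 at Mycl, against 1.19 over all regions. Once pileups were also divided by this median of all regions, 2 family regions were at least 1.5 times higher and 4 at least 1.5 times lower, and the 2 strong regions at Myc no longer passed that limit. These 3 comparisons share their lists and are not independent of each other.

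**Figure D4:**
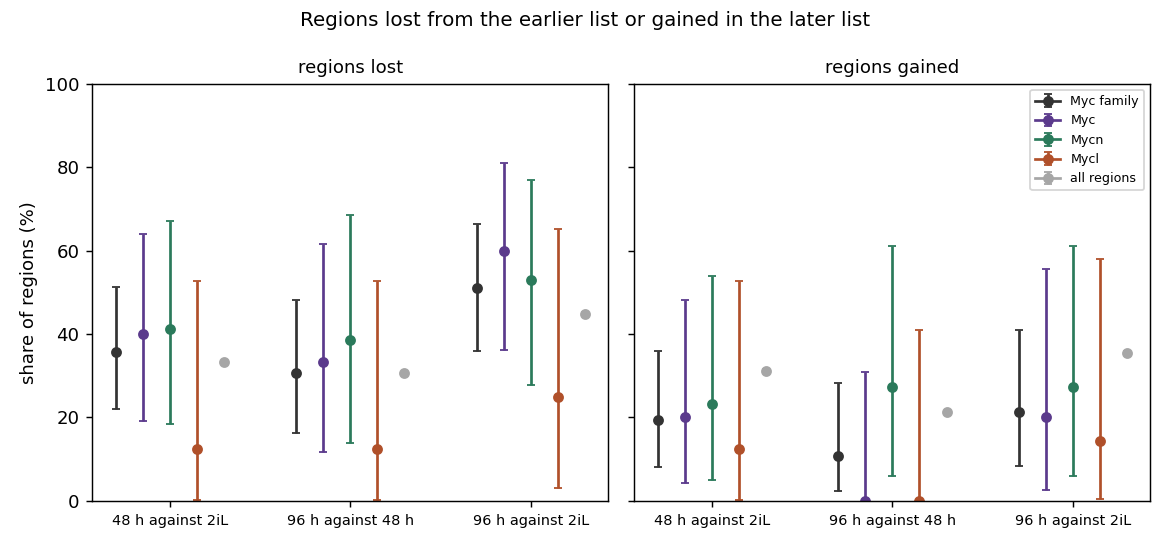
Share of regions lost from the earlier list (left) and gained in the later list (right), in percent, for the family, each gene and all regions, with exact Clopper-Pearson 95% intervals. In all 3 comparisons the family's intervals include the share of all regions.

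Most losses lay far from the genes. Within 1 kb of a gene end, 0 of 4 family regions of 2iL were absent at 96 h, against 10.9% of all regions at that distance. Between 1 and 20 kb, 5 of 15 were (33.3%, 11.8 to 61.6%), against 47.9%. Between 20 and 100 kb, 18 of 26 were (69.2%, 48.2 to 85.7%), against 54.3%, and again the interval includes the share of all regions. Over the genome, weak regions were absent from the later list more often than strong ones. With all regions of 2iL split into 4 equal groups by rising -log10 p, 71.0%, 54.8%, 38.0% and 15.7% were absent at 96 h. In the same groups the family lost 5 of 12, 8 of 12, 8 of 14 and 2 of 7, so that its losses were spread over strong and weak regions.

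Of the 54 family regions, 21 were in all 3 lists (38.9%, against 35.9% of all regions), 15 in 2iL only (27.8%, against 20.8%) and 8 in 2iL and at 48 h (14.8%, interval 6.62 to 27.1%, where the share of all regions was 10%). Only 2 were listed at 96 h alone (3.70%, interval 0.452 to 12.7%, against 10.5%). A region absent from a list was not called there, by criteria that the sources used here do not give. The files do not say how much signal it kept. The regions nearest to the distance limit were both at or near Pvt1 for Myc: an interval at 97.4 kb with 120 tags at 96 h lay just inside, and one at 102.4 kb with 1885 tags at 48 h just outside. For Mycn they lay at 95.22 kb (189 tags in 2iL) and 108.2 kb (366 tags at 48 h).

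The genes whose interval numbers were most like those of Myc over the 3 lists were Apc, with 20 in 2iL, 16 at 48 h and 10 at 96 h, Mgat5 (24, 16 and 10) and Ank3 (25, 16 and 10), with summed differences of 2, 2 and 3 intervals. Pcbd1 and Rngtt had the same numbers as Mycn (18, 14 and 11), and Atrnl1 differed by 1. Acbd6, Ccdc138 and Emp1 had the same numbers as Mycl, as did 13 genes in all. Likeness here is only in numbers of intervals in 3 lists.

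Of the other genes of the MAX network, all 10 (Max, Mlx, Mxd1, Mxd3, Mxd4, Mxi1, Mnt, Mga, Mlxip and Mlxipl) had at least 1 interval within 1 kb of a gene end in every list, against 54.7% of all protein-coding genes. Such intervals numbered 2, 1 and 1 at Mxd3 and 2, 2 and 1 at Mxi1 over the 3 lists. Together they had 64 regions in 2iL, 66 at 48 h and 47 at 96 h. At 96 h, 6 genes had fewer regions than in 2iL, 2 had more and 2 had the same number. Of 17978 genes with a region in either list, 45.5% had fewer, 24.9% more and 29.6% the same number. Max, the obligate partner of MYC, had 18, 13 and 10 regions in the 3 lists. Mxi1, whose product competes with MYC for MAX, had 14, 16 and 9, and Mga, which represses germ-cell genes with MAX, had 6, 6 and 3. Mlxip, a glucose-sensing factor that pairs with MLX, had 4, 7 and 6. Of the network's 64 regions in 2iL, 30 were absent at 96 h (46.9%), and of its 47 at 96 h, 13 were gained (27.7%), against the 44.9% and 35.5% of all regions.

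The 12 genes of MYC partners and turnover had 74 regions in 2iL, 59 at 48 h and 46 at 96 h. An interval within 1 kb of a gene end was present at 9, 9 and 8 of the 12. Over all protein-coding genes the shares were 59%, 61.5% and 59.7%. Aurka, which stabilizes MYCN, had one in 2iL and at 48 h but not at 96 h. Counted by merged regions, however, Aurka had 0 in every list and 0 lost. Those intervals belong to regions whose midpoint lies nearest to another gene, so they do not show a region lost at Aurka. At 96 h, 8 genes had fewer regions than in 2iL, 0 had more and 4 had the same number, against 45.5%, 24.9% and 29.6% of genes with a region. The 4 include Aurka, with 0 regions in both lists, a kind of gene that these shares leave out. Of the 74 regions, 38 were absent at 96 h (51.4%, 39.4 to 63.1%), against 44.9% of all regions, and of the 46, 10 were gained (21.7%, 10.9 to 36.4%), against 35.5%. Both intervals include the share of all regions. Trrap, a scaffold of histone acetyltransferase complexes that MYC recruits, had 14, 10 and 5 regions. Fbxw7 and Huwe1, ubiquitin ligases that act on MYC, had 14, 12 and 11 and 6, 4 and 2.

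The 20 known MYC target genes had 75 regions in 2iL, 76 at 48 h and 63 at 96 h. An interval within 1 kb of a gene end was present at 18, 18 and 16 of them, against 59%, 61.5% and 59.7% of all genes. Gart and Hspd1 had one in 2iL and at 48 h but not at 96 h. At 96 h, 8 target genes had fewer regions than in 2iL, 3 had more and 9 had the same number. Of genes with a region in either list, 45.5% had fewer, 24.9% more and 29.6% the same number. Of the 75 regions, 26 were absent at 96 h (34.7%, 24.0 to 46.5%), against 44.9% of all regions, and of the 63, 14 were gained (22.2%, 12.7 to 34.5%), against 35.5%. The differences between these gene lists were not tested. Ccnd2, a G1 cyclin gene, had 6, 10 and 8 regions, Ldha, of lactate metabolism, had 5, 7 and 6, and Ncl, which encodes the nucleolar protein nucleolin, had 4, 8 and 4. Gart, of purine synthesis, had 5, 1 and 0.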

How the data were processed

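ATAC-seq was done on 6 samples in 3 groups. Per the labels' protocols, nuclei came from 100000 live cells per sample, and fragments of 200 to 700 bp were kept. Per the submitters' processing notes, bcl2fastq 2.20.0.422, BWA, SAMtools and Picard were used with the build mm10; the peak caller is not given in the sources used here. The authors deposited 1 peak list per group, combining both samples, with 0 columns of other samples. Each deposited line gives an interval, a score (not used), a summit position, a fold enrichment (a ratio to local background) and a -log10 p-value; the files state no read depth. An interval kept its summit with the highest -log10 p.

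Genes came from RefSeq (21887 protein-coding genes, GRCm38.p6, the mm10 assembly). Pileup k and background b were solved from the deposited fold, taken as (k + 1)/(b + 1), and the Poisson tail; recovery and the counts of lost and gained regions were tested on simulated data. The pileup measure, its 1.5 limit and the alternatives without a distance limit or with median scaling were chosen after seeing the data, and the members and gene lists were chosen with earlier results of these data known. Named regions are those at gene ends, the 3 with the highest fold enrichment per gene and list, and any whose presence or pileup the counts turn on, the last chosen after their values were seen. The promoter table held 2 of the 3 members. With 1 list per group no test was run. Alternatives were the upper 50% of each list by -log10 p, lists of equal length, 50% overlap, nearest gene body, and limits of 20 kb or none. Python 3.11.15, numpy 2.4.6, pandas 2.3.3, scipy 1.17.1 and matplotlib 3.10.9 were used.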

Additional observations from a re-analysis of the deposited data

How the results depend on the processing

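With 1 list per group, the values show differences between these lists and carry no sample spread. No paired analysis was possible because each list combines both samples of its group. A share counts as moved when it leaves the counting interval of the reported share, and a count when it changes by over 1.5 times. An overlap of at least 50% and assignment to the nearest gene body left every value as it was. With lists of equal length no value moved by these bounds, but the gained share was 31.2% at 48 h and 39.3% at 96 h, each against 2iL, where 19.4% and 21.4% were reported. In the upper 50% of each list by -log10 p, the family had 23 intervals in 2iL, 18 at 48 h and 17 at 96 h. There 54.5% of regions were lost and 44.4% gained at 48 h against 2iL, and 41.2% were gained at 96 h against 2iL. Within 20 kb of a gene end there were 21, 23 and 17 intervals. The fall at 48 h in interval number is thus not seen within 20 kb. At that distance 15.8% of family regions were lost at 48 h and 26.3% at 96 h, each against 2iL. Losses were also fewer near gene ends over the genome. Of all regions within 1 kb of a gene end, 7.21% were lost at 48 h and 10.9% at 96 h against 2iL. Between 1 and 20 kb these shares were 34.1% and 47.9%. With no distance limit there were 81, 78 and 56 intervals. With pileups also divided by the median ratio of all shared regions, 2 regions instead of 7 were at least 1.5 times higher at 96 h than in 2iL and 4 instead of 2 were lower. The cause of these differences was not tested. Of 57 recomputed family values, 41 stayed within the bounds and 16 moved.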

Other observations

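Beyond the 100 kb limit, Myc is the nearest protein-coding gene to a further 30 regions, the farthest 576 kb away, with 16 listed in 2iL, 23 at 48 h and 14 at 96 h. At 48 h against 2iL, 11 of the 23 were gained and 4 of the 16 lost, where 31.2% and 33.2% of all regions were. At 96 h against 48 h, 3 of the 14 were gained and 12 of the 23 lost, where 21.2% and 30.7% of all regions were. Within the limit, 3 of 15 Myc regions were gained and 8 of 20 lost at 48 h against 2iL. These differences were not tested. Pvt1 as a whole, chr15:62037986-62260215, overlapped 27 regions, with 20 listed in 2iL, 20 at 48 h and 10 at 96 h. Its 18 regions beyond the limit numbered 11, 15 and 6, where those within it numbered 9, 5 and 4. The strongest region there, chr15:62092362-62093253 and 102.4 kb from Myc, was in every list with 1047 tags in 2iL, 1885 at 48 h and 1066 at 96 h. No value here other than distance ties these regions to Myc.

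Beyond the limit at Mycn were 21 regions, with 16 listed in 2iL, 15 at 48 h and 13 at 96 h, all downstream of the gene. The region chr12:12787234-12789042, 148 kb from Mycn, had 1347 tags in 2iL, 682 at 48 h and 215 at 96 h. A region at chr12:12715141-12716598 was listed in 2iL only, with 530 tags and fold enrichment 18.9. The region chr12:12693597-12694919 moved the other way, with 277, 262 and 767 tags.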
